A study of Mus musculus with 12 samples.

Results

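The genes described here are 10 sarcomere genes of the myosin and troponin families, in which some isoforms are exchanged as the mouse heart matures. The 10 were chosen by symbol from the 25239 gene symbols of each deposited count table. They are the myosin heavy chains Myh6, Myh7 and Myh7b, the myosin light chains Myl2 and Myl3, and the troponin subunits Tnni1, Tnni3, Tnnt1, Tnnt2 and Tnnc1, and all 10 were present in both tables. Total RNA of heart cardiomyocytes, extracted from cultured cells per the labels' protocols, was sequenced in 12 libraries that form 4 groups of 3. Chaf1a, which encodes the large subunit of the histone chaperone chromatin assembly factor 1, was floxed in all mice of the design, and the knockout mice also carried Myh6-Cre, a Cre recombinase under the promoter of Myh6, itself a gene of the list. The first table held the groups Ctrl (Chaf1af/f without Cre, called WT in the labels) and Chaf1a cko (Myh6-Cre; Chaf1af/f), named the first set below. The second held Ctrl 3M and Chaf1a cko 3M, named the 3M set. What 3M stands for is not written out in the labels, which give no age for either set and do not say whether the 3 libraries of a group were from different animals or cultures, so p-values here cover only the scatter among the deposited libraries, part or all of which may be technical. The labels put all 12 libraries in 1 batch. Because the controls lack Cre, an effect of Cre and one of the Chaf1a deletion cannot be told apart.

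In a sarcomere, myosin heavy chains pull on the thin filament, each carrying an essential and a regulatory light chain, and the troponin complex on the thin filament switches contraction on when calcium binds. The mouse ventricle uses the slow heavy chain Myh7 before birth and replaces it with the fast heavy chain Myh6 soon after. The slow skeletal troponin I gene Tnni1 gives way to cardiac Tnni3 over the same period. Re-expression of Myh7 in the adult heart is a widely used sign of cardiac stress.

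These genes lie in small clusters, and the heavy chain genes carry microRNAs of their own. All positions are RefSeq positions on GRCm38.p6, the assembly behind mm10. Myh6 (chromosome 14, 54941921 to 54968017) and Myh7 (chromosome 14, 54970684 to 54994626) are both on the minus strand with 2666 bases between them. Mhrt, a noncoding RNA gene (chromosome 14, 54968787 to 54974349), starts between them on the plus strand and overlaps the last 3666 bases of Myh7. Mir208a lies in an intron of Myh6, Mir208b in an intron of Myh7 and Mir499 in an intron of Myh7b (chromosome 2, 155611243 to 155634307). Tnnt1 (chromosome 7, 4504569 to 4515975) and Tnni3 (chromosome 7, 4518305 to 4522718) are 2329 bases apart. Tnni1 (chromosome 1, 135783033 to 135810989) and Tnnt2 (chromosome 1, 135836315 to 135852268) are 25325 bases apart, so in each pair a slow skeletal isoform neighbours a cardiac one. Myl2 lies on chromosome 5 from 122092724 to 122113473, Myl3 on chromosome 9 from 110763678 to 110769802 and Tnnc1 on chromosome 14 from 31208312 to 31211729. The mature microRNAs of the 3 heavy chain genes are shown from RefSeq because their seeds (bases 2 to 8, in capitals) group them, and each is printed 5′ to 3′.
miR-208a-3p, in Myh6: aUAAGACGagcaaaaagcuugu
miR-208b-3p, in Myh7: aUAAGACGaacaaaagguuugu
miR-499-5p, in Myh7b: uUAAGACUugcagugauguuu
miR-208a-3p and miR-208b-3p share 1 seed and are identical at 19 of 22 positions, while the seed of miR-499-5p ends in another base.

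The 250 bases before the start site are shown for the 3 genes of the list that passed the test in the first set, as described below. Capitals mark matches on either strand to CATTCC (the MCAT element bound by TEAD factors), AGGTCA (the core of thyroid hormone response elements), GATAA (bound by GATA factors) and the CArG box of SRF. No matched motif overlapped another. The start of Myh6 is that of the RefSeq transcript used for these windows and lies inside the annotated span of the gene. The same holds for Tnni1 (window chr1:135799171-135799420), Tnni3 and Tnnt2, whose windows are counted below but not shown. Each sequence is on the strand of its gene, from RefSeq with the build GRCm38.p6, namely chr14:54966608-54966857 (minus strand) for Myh6, chr14:54994627-54994876 (minus strand) for Myh7 and chr9:110763428-110763677 (plus strand) for Myl3.
Myh6: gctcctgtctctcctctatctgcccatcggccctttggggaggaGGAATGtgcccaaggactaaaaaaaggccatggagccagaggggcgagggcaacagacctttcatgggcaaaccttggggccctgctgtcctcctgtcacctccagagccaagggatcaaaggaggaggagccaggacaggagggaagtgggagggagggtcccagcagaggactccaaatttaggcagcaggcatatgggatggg
Myh7: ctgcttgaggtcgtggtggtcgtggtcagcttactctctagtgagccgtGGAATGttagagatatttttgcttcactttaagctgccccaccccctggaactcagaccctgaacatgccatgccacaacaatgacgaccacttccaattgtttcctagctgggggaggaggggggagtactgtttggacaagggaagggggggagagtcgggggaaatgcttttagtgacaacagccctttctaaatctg
Myl3: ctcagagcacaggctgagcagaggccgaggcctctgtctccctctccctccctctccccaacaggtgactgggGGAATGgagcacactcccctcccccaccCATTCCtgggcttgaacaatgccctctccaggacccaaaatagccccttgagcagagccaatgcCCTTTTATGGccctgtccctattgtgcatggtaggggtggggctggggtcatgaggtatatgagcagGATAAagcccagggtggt
The MCAT letters occurred 201 to 206 bases before the start of Myh6, 196 to 201 bases before that of Myh7, and at 2 places before that of Myl3. They were found in 5 of the 10 genes and in 12.6% of 32851 promoter windows of the same length. GATAA was found in 4 of the 10 genes and in 22.6% of all windows. AGGTCA was found in 1, Myh7b, and in 14.0% of all windows. Only the exact letters of AGGTCA were counted, and thyroid hormone response elements whose core differs in a base were missed. A window without a match may therefore still hold such an element. The CArG box was found in 1, Myl3, and in 1.47% of all windows.

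Libraries of the first set held 15068468 to 20896673 counts, and those of the 3M set 10569325 to 16445963. The libraries labelled Chaf1a cko did not hold less Chaf1a (24.6 ± 6.93 against 25.1 ± 3.56 CPM in the first set and 5.45 ± 3.99 against 6.49 ± 1.61 CPM in the 3M set, SD, n = 3 each), so each direction below is that of libraries by label. Counts per gene do not separate the floxed exons from the rest of Chaf1a. CPM stands for counts scaled to a common library size, with factors from the trimmed mean of M-values (TMM). Libraries of a group differed by more than counting noise in every pair, with 9.09 to 19.6 times the Poisson variance in the first set and 44.9 to 114 times in the 3M set. In the first set 94.8% to 97.5% of 1530 chemoreceptor genes, taken as silent in heart, had counts in each library, at a median of 1.61 CPM and a 95th percentile of 5.72 CPM, and each of the 10 genes was above that level. In the 3M set that median was 0. All 16 cardiomyocyte markers passed the filter on low counts in each set. Markers of other cells were present as well, with the 10 endothelial markers at 3570 to 3846 CPM in sum over the libraries of the first set and 8935 to 12779 CPM in the 3M set. In such bulk RNA, fewer cells of a type and less RNA per cell cannot be told apart.

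Per length, the order of the genes differed between the sets. For the first set, mean levels over the 6 libraries were 6341 CPM per kb for Myh6, 6135 for Tnnt2, 2692 for Myh7, 2639 for Myl2, 2033 for Myl3, 1526 for Tnnc1, 1349 for Tnni3, 413 for Tnni1, 42.2 for Tnnt1 and 15.04 for Myh7b. Library ranges overlapped between Myh6 and Tnnt2, between Myh7 and Myl2 and, barely, between Tnnc1 and Tnni3, and the other neighbours were apart. By group means, Ctrl had Myh6 (6619) above Tnnt2 (6058) and Myl2 (2554) above Myh7 (2494), while Chaf1a cko had Tnnt2 (6212) above Myh6 (6063) and Myh7 (2889) above Myl2 (2725). Pooled over the 6 libraries of the 3M set the order was Myl2 (4724 CPM per kb), Tnnt2 (3879), Myh6 (3490), Tnni3 (3078), Myl3 (1989), Tnnc1 (1136), Myh7 (246), Myh7b (123), Tnnt1 (16.9) and Tnni1 (0.432). By group means Myh6 came after Tnni3 in Ctrl 3M (2652 and 3140) and before Tnnt2 in Chaf1a cko 3M (4329 and 4277). Each of the first 6 of the pooled order overlapped its neighbour, as did Myh7 and Myh7b, while Tnnc1 lay above Myh7, Myh7b above Tnnt1 and Tnnt1 above Tnni1 in every library. Kb are those of the longest protein-coding transcript of GENCODE M21, and the tables were scaled separately.

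In the first set, the slow heavy chain Myh7 rose and the fast heavy chain Myh6 fell in the libraries labelled Chaf1a cko. In order of replicate, Myh7 stood at 16152, 15404 and 15048 CPM in the Ctrl libraries and at 17827, 18094 and 18084 CPM in the Chaf1a cko libraries. Every Chaf1a cko library was above every Ctrl library. The mean moved from 15535 ± 564 to 18002 ± 152 CPM (SD, n = 3 each), and the quasi-likelihood test of edgeR gave a log2 fold change of 0.21 with a standard error (SE) of 0.02 and an adjusted p of 0.000336. That is a rise of 15.9%. Myh6 stood at 40629, 40555 and 40196 CPM in the Ctrl libraries and at 37196, 37172 and 36818 CPM in the Chaf1a cko libraries. The groups were again apart, and the SD was 0.573% of the mean in Ctrl and 0.570% in Chaf1a cko. Myh6 fell from 40460 ± 232 to 37062 ± 211 CPM, a change of -8.40%. Its log2 fold change was -0.13 (SE 0.01, adjusted p 1.1e-06 in edgeR). By counts, Myh6 ranked 2 and Myh7 5 among all genes of the table. The sum of Myh6 and Myh7 went from 55995 ± 770 CPM in Ctrl to 55064 ± 185 CPM, and the ranges of the groups overlapped. Myh7b, an ancient slow heavy chain that hosts Mir499, was at 101, 83.8 and 102 CPM in the Ctrl libraries and at 86.8, 94.2 and 88.1 CPM in the Chaf1a cko libraries. Its groups overlapped and it did not pass (log2 fold change -0.09, 95% interval -0.28 to 0.09, adjusted p 0.811 in edgeR).

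Of the 10 genes, 2 rose, 1 fell and 7 did not pass, against 1.18% of all 22965 tested genes called (0.74% called higher, 0.435% called lower). Under a filter of 10 CPM in 3 libraries the same 3 counts applied to the list (2, 1 and 7) and 3.52% of all genes were called. At an unadjusted p under 0.05 there were 5 of the 10 genes and 10.1% of all genes. The called share was larger among genes with many counts. Among the 53 genes at 1000 CPM or more, 43.4% were called, and 3 of the 7 listed genes in that class were called, which is near that background. The median log2 fold change of the 10 genes was 0.06, beside -0.01 over all tested genes. CPM ranges did not overlap for 5 of the 10 genes (Myh6, Myh7, Myl2, Myl3 and Tnni1), where 16.2% of all tested genes had no overlap. The call of Myl3 was lost under library-size scaling, under the replicate block and when any library other than Ctrl replicate 1 was left out, while those of Myh6 and Myh7 passed under each alternative.

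**Figure D1:**
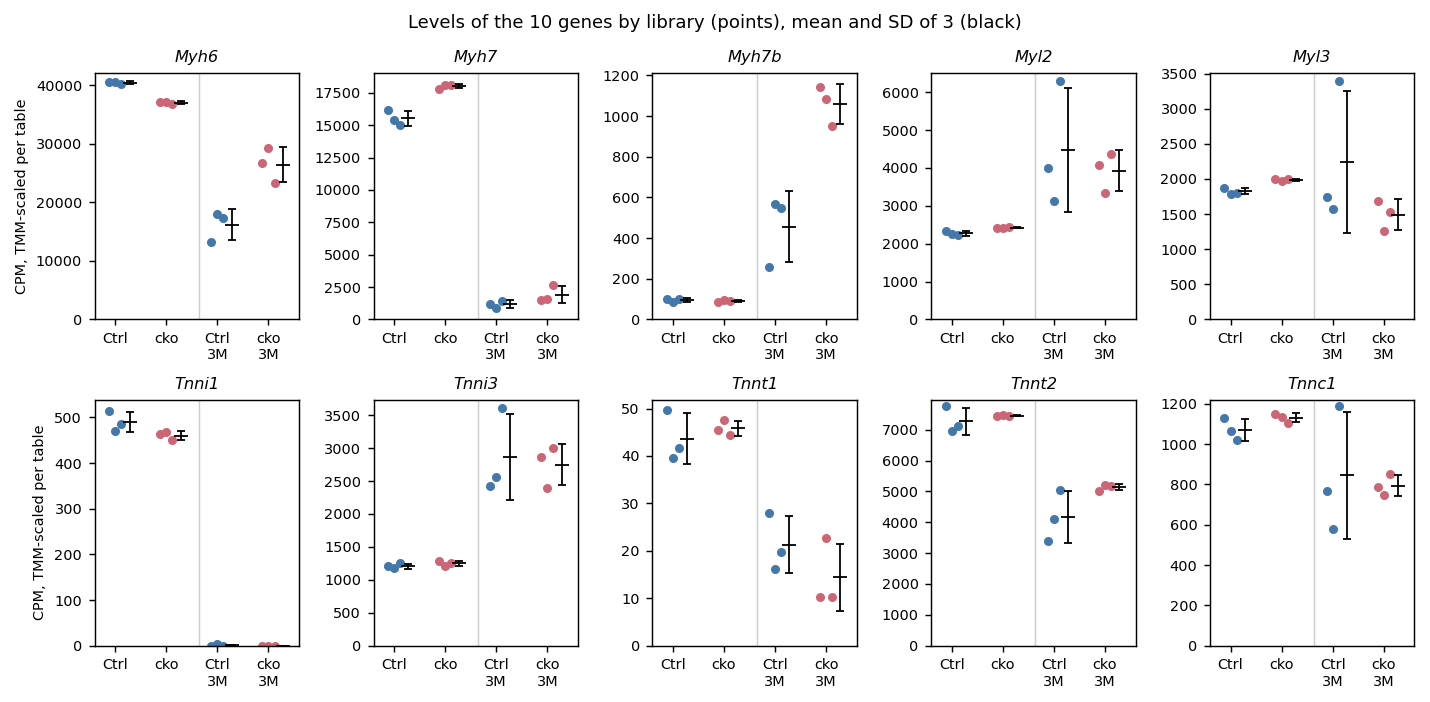
Level of each of the 10 genes in each library, as TMM-scaled CPM on a linear axis from 0, with Ctrl in blue, Chaf1a cko in red, and the mean and SD of 3 libraries in black. The grey line separates the tables, which were scaled separately. Myh7 and Myh6 of the first set separate by group in opposite directions, and Tnni1 of the 3M set lies at or near 0.

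Of the ventricular light chains, Myl3 rose and Myl2 did not pass in the first set. Myl3, the essential light chain of the ventricle and of slow muscle, was at 1873, 1792 and 1804 CPM in the Ctrl libraries and at 2000, 1968 and 1993 CPM in the Chaf1a cko libraries. It rose by 0.12 on the log2 scale (SE 0.03, adjusted p 0.0295 in edgeR), with means of 1823 ± 43.7 and 1987 ± 16.6 CPM and no overlap. Myl2, the regulatory light chain of the ventricle, was at 2336, 2259 and 2216 CPM in the Ctrl libraries and at 2410, 2417 and 2441 CPM in the Chaf1a cko libraries. All Chaf1a cko values were again the higher ones, but Myl2 did not pass (log2 fold change 0.09, SE 0.03, adjusted p 0.122 in edgeR). Without Ctrl replicate 1 it did (0.11, adjusted p 0.0348). Both light chains have short transcripts, and over the 99 genes of the first set with transcripts of at most 1200 bases and 100 CPM or more the median was 0.13 (quartiles 0.04 and 0.23). The values of Myl3 and Myl2 lay below that median.

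None of the 5 troponin genes passed in the first set. Tnni1, the slow skeletal and fetal troponin I, was at 513, 471 and 486 CPM in the Ctrl libraries and at 463, 468 and 450 CPM in the Chaf1a cko libraries. Each Chaf1a cko value was below each Ctrl value, narrowly so between 468 and 471 CPM, and the log2 fold change was -0.09 (SE 0.04, adjusted p 0.507 in edgeR). Tnni3, the adult cardiac troponin I, averaged 1208 ± 37.7 and 1252 ± 39.7 CPM with overlapping groups (log2 fold change 0.05, adjusted p 0.692). Tnnt2, the cardiac troponin T that anchors the complex to tropomyosin, was at 7758, 6946 and 7107 CPM in the Ctrl libraries and at 7450, 7480 and 7432 CPM in the Chaf1a cko libraries. Ctrl replicate 1 was the highest and the other Ctrl libraries were the lowest, with a log2 fold change of 0.04 (95% interval -0.06 to 0.13, adjusted p 0.854). Without that library the value was 0.09 with an adjusted p of 0.0163 in edgeR. Tnnt1, the slow skeletal troponin T, had the fewest counts of the list, at 43.7 ± 5.39 and 45.8 ± 1.54 CPM (log2 fold change 0.07, adjusted p 0.912). Tnnc1, the calcium-binding subunit shared by slow and cardiac muscle, was at 1070 ± 54.9 and 1130 ± 21.6 CPM (log2 fold change 0.08, adjusted p 0.490).

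The ratio of fetal to adult isoforms within a library does not depend on library scaling. Myh7 per kb in the first set was 39.0%, 37.3% and 36.7% of Myh6 in Ctrl and 47.0%, 47.8% and 48.2% in Chaf1a cko. All 3 Chaf1a cko libraries were above all 3 Ctrl libraries. The log2 ratio of counts was higher by 0.34, with group means of -1.38 ± 0.05 and -1.04 ± 0.02 (SD, n = 3 each), and an exact two-sided permutation test gave p = 0.1, the smallest that 3 against 3 allows. Tnni1 per kb was 33.8%, 31.8% and 30.9% of Tnni3 in Ctrl and 28.5%, 30.6% and 28.4% in Chaf1a cko. The fetal troponin I ratio was thus lower where the fetal heavy chain ratio was higher. Neither pair of groups overlapped, but those of troponin I were apart only narrowly, between 30.6% and 30.9%. The difference of its log2 ratio was -0.14 (exact permutation p = 0.1), and -0.18 to -0.11 with a library left out. Neither Tnni1 nor Tnni3 passed by itself. Tnnt1 per kb was 0.647% to 0.727% of Tnnt2 over the Ctrl libraries and 0.678% to 0.720% over the Chaf1a cko libraries (difference 0.04, exact permutation p = 0.6). This pair sets a slow skeletal gene against a cardiac one, and counts per gene do not separate splice forms of Tnnt2. In the transcripts of GENCODE M21, 22.2% of the 50-base stretches of Myh7 also occur in Myh6, so reads there could be split or dropped in the authors' counting. No 50-base stretch was shared between Tnni1 and Tnni3, between Tnnt1 and Tnnt2, between Myl2 and Myl3, or between Myh7b and either of the other heavy chains. The Myh7 and Myh6 values are uncertain to that extent.

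**Figure D2:**
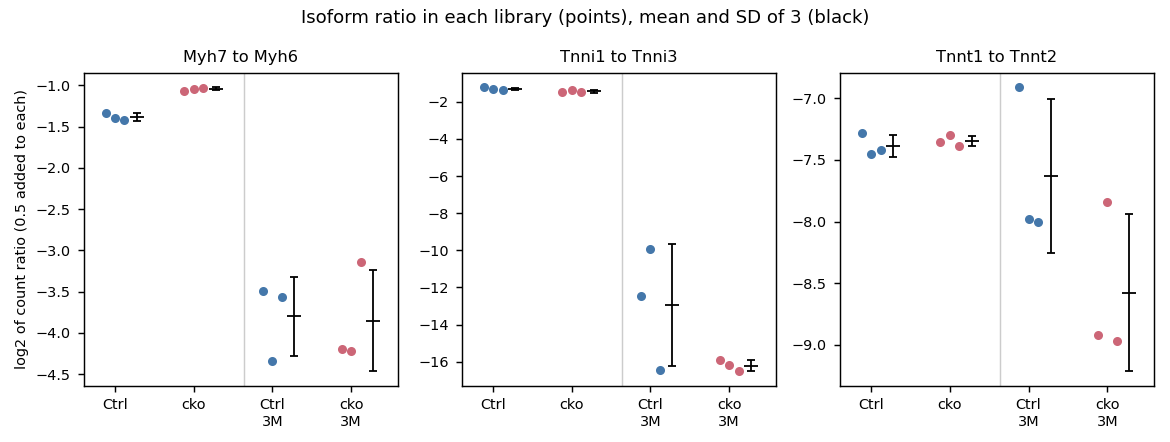
log2 of the count ratio of fetal to adult isoform in each library, with 0.5 added to each count, Ctrl in blue, Chaf1a cko in red, and the mean and SD of 3 libraries in black. In the first set the Myh7 to Myh6 ratio is higher by 0.34 in Chaf1a cko, and in the 3M set the groups overlap for each ratio. The lowest Tnni1 to Tnni3 values come from libraries with 0 counts of Tnni1 and are set by the added 0.5.

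Other measures moved with the groups of the first set. Of 14 atrial cardiomyocyte markers, a list that holds Myh6 because atria also use it, 1 rose, 8 fell and 5 did not pass. The 13 without Myh6 summed to 2805 to 2883 CPM over the Ctrl libraries and to 2644 to 2702 CPM over the others, with 0 of them at 0. The 4 Y-linked genes all passed with higher values, and their sum was 50.05 to 61.1 CPM in Ctrl but 115 to 133.99 CPM in the libraries labelled Chaf1a cko. Y-linked RNA comes from male cells, and the sample titles do not give sex. An unequal share of males between the groups and a difference of genotype cannot be told apart in these counts. Of 10 fibroblast markers 5 fell and 0 rose, with sums of 3589 to 3692 CPM in Ctrl, 2990 to 3015 CPM in the libraries labelled Chaf1a cko and 0 markers at 0. The 16 ventricular and general cardiomyocyte markers (3 rose, 3 fell, 10 did not pass) summed to 47856 to 50481 CPM and 45131 to 45598 CPM in the same order. Ttn, the marker with the most counts, fell from 36142 ± 845 to 33349 ± 107 CPM (adjusted p 0.000106 in edgeR), whereas 10 of the 16 had values above 0 and the median of the list was 0.03. The part of these in the heavy chain values was not tested.

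In the 3M set the heavy chains were higher in the libraries labelled Chaf1a cko, but no gene of the list passed the test. Again in order of replicate, Myh7b was at 256, 565 and 549 CPM in the Ctrl 3M libraries and at 1142, 1085 and 952 CPM in the Chaf1a cko 3M libraries. The groups were widely apart, with means of 457 ± 174 and 1060 ± 97.4 CPM (SD over 3 libraries). Its log2 fold change was 1.21 (SE 0.30, 95% interval 0.54 to 1.89) with an unadjusted p of 0.00290 and an adjusted p of 0.554 in edgeR. The Wald test of DESeq2 gave an adjusted p of 0.0391 for Myh7b, where it called 0.439% of all genes. Myh6 was at 13251, 18089 and 17295 CPM in the Ctrl 3M libraries and at 26801, 29223 and 23360 CPM in the Chaf1a cko 3M libraries. It had the most counts of all genes in the table, its groups did not overlap, and its log2 fold change was 0.71 with an SE of 0.19 (95% interval 0.28 to 1.13), at an adjusted p of 0.587 in edgeR. Myh7 was at 1182, 889 and 1457 CPM in the Ctrl 3M libraries and at 1461, 1568 and 2639 CPM in the Chaf1a cko 3M libraries. Its groups met almost exactly, between Ctrl 3M replicate 3 and Chaf1a cko 3M replicate 1, and its log2 fold change was 0.68 (SE 0.28, 95% interval 0.04 to 1.32, adjusted p 0.712). Without Chaf1a cko 3M replicate 3 it was 0.37. Myh7b, Myh6 and Myh7 were the genes of the list without overlap, where 14.1% of all tested genes had none. The test called 2 of 13925 genes (0.0144%, with 0.00718% higher and 0.00718% lower), and 6.93% of all genes had an unadjusted p under 0.05, among them these same 3.

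The summed Myh6 and Myh7 level in the 3M set was 14433, 18978 and 18753 CPM in the Ctrl 3M libraries and 28262, 30791 and 25999 CPM in Chaf1a cko 3M. The ratio of the heavy chains did not separate the groups. Myh7 per kb was 8.75%, 4.82% and 8.27% of Myh6 in the Ctrl 3M libraries and 5.35%, 5.26% and 11.1% in those of Chaf1a cko 3M. The groups overlapped, with a difference of the log2 ratio of -0.05 (group means -3.80 ± 0.47 and -3.85 ± 0.61, exact permutation p = 1). Its sign turned when any of 4 libraries was left out, to 0.10 without Ctrl 3M replicate 1, 0.06 without Ctrl 3M replicate 3, 0.12 without Chaf1a cko 3M replicate 1 and 0.13 without Chaf1a cko 3M replicate 2. The highest ratio, 11.1%, belonged to Chaf1a cko 3M replicate 3, the library with the highest Myh7.

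For each light chain and troponin gene of the 3M set the groups overlapped, and none passed the test. Myl2 was at 4008, 3119 and 6295 CPM in the Ctrl 3M libraries and at 4083, 3327 and 4364 CPM in the Chaf1a cko 3M libraries (log2 fold change -0.19, adjusted p 0.907 in edgeR). Myl3 was at 1746, 1566 and 3397 CPM in the Ctrl 3M libraries and at 1693, 1253 and 1525 CPM in the Chaf1a cko 3M libraries (-0.59, 95% interval -1.28 to 0.10, adjusted p 0.754). Tnnc1 was at 767, 577 and 1188 CPM in the Ctrl 3M libraries and at 786, 745 and 852 CPM in the Chaf1a cko 3M libraries (-0.09, adjusted p 0.964). In each of them Ctrl 3M replicate 3 was the highest library of the 6. The same held for Tnni3, at 2418, 2558 and 3616 CPM against 2863, 2394 and 2996 CPM (-0.06, adjusted p 0.971). Without that library the log2 fold changes were 0.14 for Myl2, 0.24 for Tnnc1 and 0.14 for Tnni3, and that of Myl3 was -0.15, and none of these passed. Tnnt2 was at 3382, 4100 and 5048 CPM in the Ctrl 3M libraries and at 5027, 5209 and 5162 CPM in the Chaf1a cko 3M libraries (0.30, 95% interval -0.14 to 0.73, adjusted p 0.785). Its Chaf1a cko 3M libraries lay close together at the level of the highest control.

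The slow skeletal troponins were low or unseen in the 3M set. Tnni1 had 4, 44 and 0 counts in Ctrl 3M replicates 1 to 3 and 0 counts in every Chaf1a cko 3M library, where a count of 0 allows up to 0.281, 0.192 and 0.191 CPM in replicates 1 to 3 (counting error only). It was below the filter on low counts and was not tested, and since Ctrl 3M replicate 3 was also at 0, the 44 counts of replicate 2 make up nearly all of its signal. Tnnt1 was at 28.05, 16.2 and 19.7 CPM in the Ctrl 3M libraries and at 10.3, 22.7 and 10.2 CPM in the Chaf1a cko 3M libraries (log2 fold change -0.56, SE 0.39, adjusted p 0.806 in edgeR). Its groups overlapped, and with a library left out the value ran from -1.05 (without Chaf1a cko 3M replicate 2) to -0.32 (without Ctrl 3M replicate 1). Tnnt1 per kb was 0.940%, 0.448% and 0.441% of Tnnt2 in the Ctrl 3M libraries and 0.232%, 0.493% and 0.225% in those of Chaf1a cko 3M (difference of the log2 ratio -0.95, exact permutation p = 0.3). The Tnni1 to Tnni3 ratio differed by -3.25 (exact permutation p = 0.3), a value set by the added 0.5 in the 4 libraries at 0 and no measure of size. Set beside the first set, where Myh7 per kb was 36.7% to 48.2% and Tnni1 per kb 28.4% to 33.8% of the adult isoform, the 3M libraries held 4.82% to 11.1% and at most 0.0808%. These are ratios within libraries of tables made separately, and no test was made between them.

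**Figure D3:**
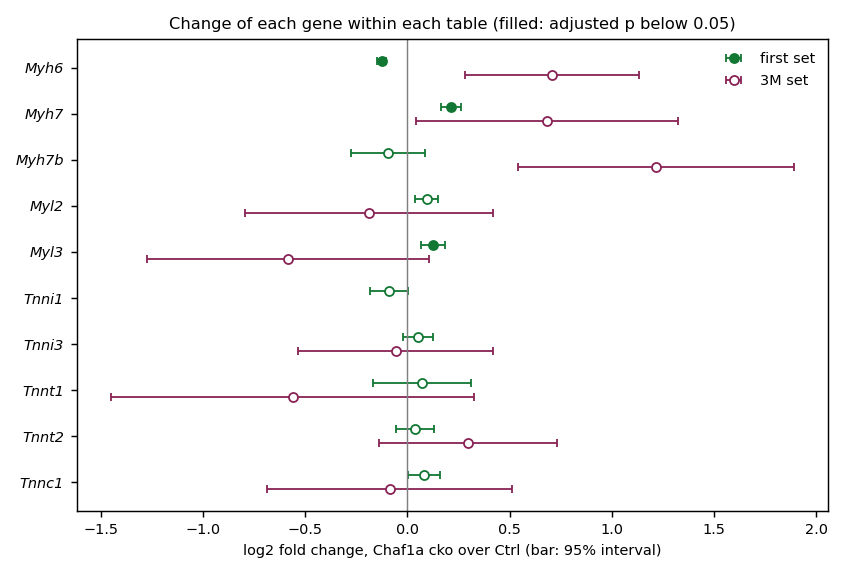
log2 fold change of Chaf1a cko over Ctrl for each gene, with its 95% interval from edgeR, in the first set (green) and the 3M set (purple). Filled points passed an adjusted p of 0.05. Intervals of the 3M set are wider for each gene tested in both sets, and Tnni1 of that set was not tested.

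The change of Myh6 had opposite signs in the sets, at -0.13 and 0.71 on the log2 scale. The interaction of set and genotype over all 12 libraries was 0.87 for Myh6 (SE 0.17, 95% interval 0.50 to 1.24) with an unadjusted p of 0.000291 and an adjusted p of 0.123 in edgeR, so the difference did not pass. This fit used a common spread per gene for both sets, although the 3M libraries scattered more. The SE for Myh6 was below that of the 3M set by itself (0.19). Intervals and p-values of the interaction may therefore be too narrow. For Myh7b the interaction was 1.35 (95% interval 0.59 to 2.10, adjusted p 0.299), for Myh7 0.51 (adjusted p 0.625) and for Myl3 -0.67 (adjusted p 0.542). The test called 0.0658% of 22803 genes (0.057% with a higher and 0.00877% with a lower 3M value) and 0 of these 10. At an unadjusted p under 0.05, 3 of the 10 were counted, namely Myh6, Myh7b and Tnni1, against 9.47% of all genes. Tnni1 was below the filter of the 3M set and entered the joint fit through its first-set counts. Its interaction of -6.97 (SE 2.21) rests on 4, 44 and 0 counts in Ctrl 3M and 0 in every Chaf1a cko 3M library, and is no measure of size.

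Transcript length and other cell types varied alongside the 3M values. The 3 heavy chains have transcripts of 6113 to 6230 bases and log2 fold changes of 0.68 to 1.21. The 6 other tested genes of the list have transcripts of 721 to 1200 bases and values of -0.59 to 0.30. Over all genes of the 3M set at 100 CPM or more, 396 with transcripts of at least 6000 bases had a median of 0.05 (quartiles -0.28 and 0.33), and 195 with transcripts of at most 1200 bases had a median of -0.21 (quartiles -0.34 and -0.10). The heavy chains lay above the upper quartile of the long class. The sum of 16 cardiomyocyte markers was 12867 to 16759 CPM in Ctrl 3M and 16191 to 18988 CPM in Chaf1a cko 3M. Titin (Ttn), the marker with the most counts, averaged 3138 ± 1705 and 6389 ± 510 CPM (adjusted p 0.712 in edgeR), whereas 6 of the 16 markers had values above 0 and the median of the list was -0.12. The sum of 10 macrophage and myeloid markers was 415 to 540 CPM in Ctrl 3M and 259 to 330 CPM in Chaf1a cko 3M, with 0 markers at 0. Neither list had a gene that passed, and the part of these in the heavy chain values was not tested.

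At the heavy chain locus of the 3M set, the libraries ranked differently by Mhrt and Mir208b than by Myh7, and none of the 3 genes passed. Mhrt was at 140.99, 221 and 157 CPM in the Ctrl 3M libraries and at 517, 350 and 180 CPM in the Chaf1a cko 3M libraries (log2 fold change 1.01, SE 0.37, adjusted p 0.692 in edgeR). Mir208b, whose precursor lies inside Myh7, was at 10.3, 19.3 and 7.43 CPM in the Ctrl 3M libraries and at 57.6, 31.9 and 10.9 CPM in the Chaf1a cko 3M libraries (1.43, SE 0.63, adjusted p 0.713). Both were highest in Chaf1a cko 3M replicate 1, then in replicate 2 of that group and then in Ctrl 3M replicate 2. Myh7 was highest in Chaf1a cko 3M replicate 3, where Mhrt and Mir208b lay within their control ranges. Mir208a, inside Myh6, was below the filter on low counts and was not tested. It had 0, 4 and 3 counts in the Ctrl 3M libraries and 40, 30 and 0 in the Chaf1a cko 3M libraries. In the first set, with Myh7 at 15048 CPM or more, the Mir208b count was 2 to 5 in every library. Mhrt was there at 36.3, 44.6 and 83.6 CPM in the Ctrl libraries and at 23.8, 46.4 and 22.9 CPM in the Chaf1a cko libraries (log2 fold change -0.82, SE 0.49, adjusted p 0.706). Mir208b is on the strand of Myh7, 1350 bases beyond the annotated end of Mhrt. The sources used here do not say whether counting used strand, so reads of Myh7, Mhrt and Mir208b where they overlap cannot be told apart, and such counts do not measure mature microRNA. Mir499 had 0 counts in all 12 libraries, also where Myh7b was above 952 CPM.

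**Figure D4:**
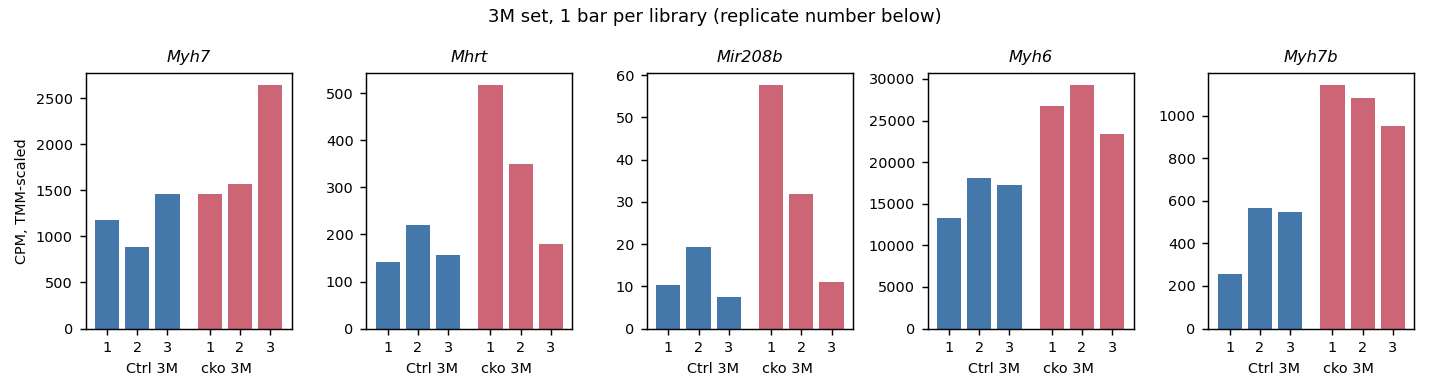
TMM-scaled CPM in each library of the 3M set for Myh7, the genes Mhrt and Mir208b that overlap it or lie in it, Myh6 and Myh7b, with Ctrl 3M in blue and Chaf1a cko 3M in red on linear axes from 0. Mhrt and Mir208b peak in Chaf1a cko 3M replicate 1, and Myh7 in replicate 3.

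Among the other myosin genes of striated muscle, 2 rose, 2 fell and 18 did not pass of 22 tested in the first set, with a median log2 fold change of 0.01. The Wald test of DESeq2 called 6, the same 4 and the skeletal heavy chains Myh4 and Myh8 (-0.64 each), which are named after their values were seen. In edgeR, 7 of the 22 had an unadjusted p under 0.05, against 10.1% of all tested genes. In Ctrl and Chaf1a cko, Myh4 averaged only 16.6 and 10.7 CPM, and Myh8 26.2 and 16.8 CPM. The 95th percentile of the chemoreceptor genes was 5.72 CPM, not scaled by length, so a part of these counts may be background. Mybpc3, the cardiac myosin-binding protein C of the thick filament, rose by 0.18 on the log2 scale, with means of 1494 ± 18.3 and 1697 ± 19.7 CPM (adjusted p 0.00131 in edgeR). Mylk3, the cardiac kinase of the regulatory light chain, rose from 234 ± 8.42 to 288 ± 15.1 CPM (0.30, adjusted p 0.00771), a call lost without Ctrl replicate 2 (adjusted p 0.0738) and, in the Chaf1a cko group, without replicate 1 (0.0540) or replicate 3 (0.0868). The atrial light chains Myl4 and Myl7 fell by 0.59 and 0.80. Of 9 tested in the 3M set 0 passed in edgeR and 4 had an unadjusted p under 0.05, against 6.93% of all genes. The Wald test of DESeq2 called 2 (Myh14 and Myl1, named after their values were seen), where it called 0.439% of all genes. Mylk3 was there at 63.2, 99.8 and 80.6 CPM in the Ctrl 3M libraries and at 184, 148 and 132 CPM in the Chaf1a cko 3M libraries, without overlap (0.93, adjusted p 0.554). Mybpc3 was at 2547 ± 733 and 3850 ± 709 CPM with overlapping groups (0.60, adjusted p 0.712). The 3M median of this list was 0.60, the value of Mybpc3, beside -0.02 over all genes. Of the 9 values 5 were above 0 and the rest below. Those above 0 include Myh14 (1.21), a nonmuscle heavy chain, and Myl6b (1.67), which averaged only 0.534 and 1.70 CPM.

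Of 15 other thin filament genes tested in the first set, 1 rose, 2 fell and 12 did not pass. In edgeR, 5 of the 15 had an unadjusted p under 0.05, against 10.1% of all tested genes. Acta2, the smooth muscle actin that fetal heart also uses, rose from 584 ± 21.8 to 854 ± 10.7 CPM (0.55, adjusted p 4.1e-07 in edgeR). Lmod2, a nucleator of thin filaments, fell from 247 ± 9.84 to 191 ± 1.98 CPM (-0.38, adjusted p 0.000785). Actc1, the cardiac alpha actin, fell by 0.09 with an adjusted p of 0.0487, a call that was lost with every single library left out. Of 14 tested in the 3M set 0 passed in edgeR and 0 by the Wald test of DESeq2. An unadjusted p under 0.05 in edgeR was found for 2 of the 14, against 6.93% of all genes. Tpm1 and Actc1, the genes with the most counts there, had log2 fold changes of 0.05 each. Of 40 factors known to act on these isoforms and tested in the first set, 0 rose, 1 fell and 39 did not pass. In edgeR, 10 of the 40 had an unadjusted p under 0.05, against 10.1% of all tested genes. The gene that fell was Hdac5, a class II histone deacetylase that restrains MEF2, from 136 ± 4.18 to 108 ± 8.29 CPM. Its log2 fold change was -0.32 at an adjusted p of 0.0319 in edgeR, and it passed in 1 of 6 fits with a library left out and not with the replicate block. Of 38 factors tested in the 3M set 0 passed in edgeR and 0 by the Wald test of DESeq2. An unadjusted p under 0.05 in edgeR was found for 5 of the 38, against 6.93% of all genes. Rbm20, a splicing factor for titin and the one with the most counts, was at 366, 408 and 385 CPM in the Ctrl 3M libraries and at 545, 648 and 562 CPM in the Chaf1a cko 3M libraries (0.60, adjusted p 0.604). Its groups overlapped in the first set, with a log2 fold change of 0.05. Mef2a, a muscle transcription factor, was at 423 ± 8.15 and 357 ± 63.8 CPM in the first set (-0.25, adjusted p 0.681) and at 412 ± 104 and 321 ± 19.3 CPM in the 3M set (-0.36, adjusted p 0.776, and -0.14 without Ctrl 3M replicate 1).

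**Figure D5:**
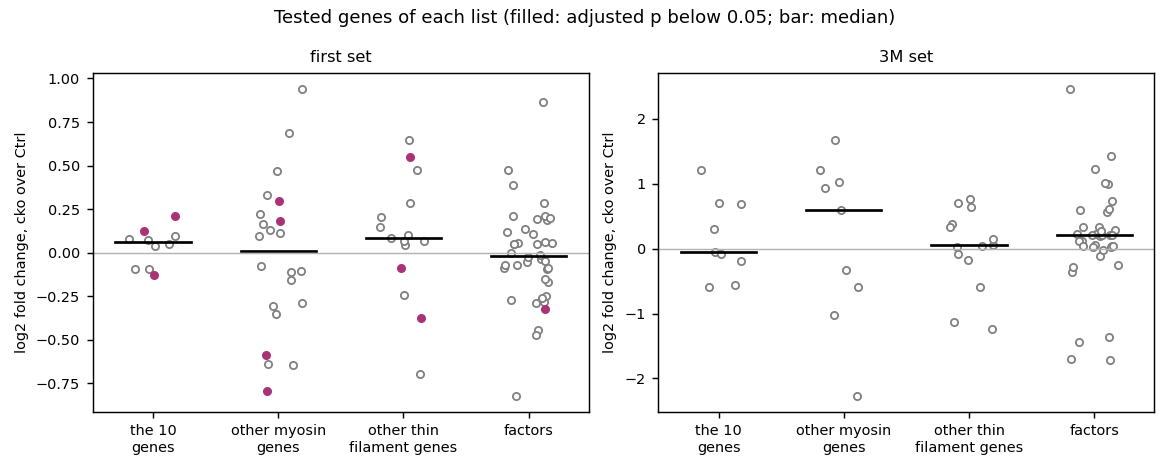
log2 fold change of Chaf1a cko over Ctrl for each tested gene of the 4 lists, in the first set (left) and the 3M set (right, on a wider axis), with a bar at the median and filled points for an adjusted p below 0.05. Filled points occur in the first set and not in the 3M set.

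Likeness of course between genes was taken over the 12 libraries with each table centred on its own mean. The 10 genes themselves were left out as candidates. Genes with the most similar course were then sought for 3 of the members among 13112 named genes tested in both sets. For Myh7 these were Elac2, Plvap and Cand2, with a Pearson r of 0.97, 0.96 and 0.96. For Myh7b they were Appl2, Cubn and Arhgap20 (0.97, 0.96 and 0.96), and for Tnni1 Rp2, Hbb-bt and Arid3a (0.94, 0.93 and 0.92). Tnni1 had 4, 44 and 0 counts in the Ctrl 3M libraries and 0 in the other group, so its r rests largely on Ctrl 3M replicate 2 and the added 0.5. The r values describe libraries that share their groups and depth, and the 3M libraries, which vary more, weigh more in them.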

How the data were processed

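RNA-seq counts of 12 libraries of mouse cardiomyocytes were used. The authors deposited whole-number read counts per gene symbol, without normalization, in 2 tables of 6 libraries each. FastQC, Trimmomatic, HISAT2 and mm10 are named per the submitters' processing notes, and no program, annotation or strand option for counting was found in the labels or headers. Samples were grouped by title. Each table had its own fit (R 4.3.3, edgeR 4.0.16): filterByExpr (minimum count 10, minimum total 15), TMM scaling, robust glmQLFit and glmQLFTest of Chaf1a cko against Ctrl, two-sided, with Benjamini-Hochberg adjustment over all genes tested and a threshold of 0.05. The interaction of set and genotype was fitted on all 12 libraries. The fit was tested on simulated data. With 10569325 to 20896673 counts per library, counting error was small beside the spread between libraries for genes with many counts.

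Ratios of isoforms were log2 values of counts with 0.5 added, compared by an exact permutation test. Positions and sequences came from RefSeq tables of GRCm38.p6, in which all 10 symbols matched, and transcript lengths from GENCODE M21. The genes and lists were chosen with earlier results of these data known. The genes named were the 10, Chaf1a, up to 4 called genes of each related list with the smallest p (the 2 with the most counts where fewer than 2 were called), and the 3 genes most like Myh7, Tnni1 and Myh7b. Mhrt, Mir208a, Mir208b and Mir499 were named for their place in the heavy chain genes, after their values were seen. Marker lists were cardiomyocyte, atrial, skeletal muscle, conduction, smooth muscle, fibroblast, endothelial, macrophage, erythroid and Y-linked genes. The alternatives tried were scaling by DESeq2 size factors or by library size only, DESeq2 1.42.0 with its Wald test, no filter, 10 CPM in 3 libraries, a replicate block and leaving out each library. For ratios they were a pseudocount of 0 and subtraction of the chemoreceptor background.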

Additional observations from a re-analysis of the deposited data

How the results depend on the processing

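Genes called in the first set numbered 270 in edgeR, 490 by the Wald test of DESeq2 and 128 to 201 with a library left out. Higher and lower calls split 170 to 100, but 191 to 175 with the 10 CPM filter. Of the 10 genes 3 were called, and 2 to 5 with a library left out, where 5 came without Ctrl replicate 1. In the 3M set 2 genes were called, 76 by the Wald test of DESeq2, 6 with no filter, 0 with the replicate block and 0 to 5 with a library left out. Of the 10 genes 0 were called there in edgeR and 1 by DESeq2. The causes were not tested.

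With a library left out, the difference of the log2 Myh7 to Myh6 ratio in the 3M set ranged from -0.41 to 0.13, with 0.10, 0.06, 0.12 and 0.13 on the other side of 0. Log2 fold changes that turned sign ranged from -0.049 to 0.12 for Actc1, -0.16 to 0.96 for Chaf1a, -0.39 to 0.14 for Myl2, -0.30 to 0.24 for Tnnc1, -0.17 to 0.14 for Tnni3 (0.03 without Chaf1a cko 3M replicate 2) and -0.061 to 0.19 for Tpm1 in the 3M set, and from -0.13 to 0.27 for Chaf1a in the first set (also -0.02 and -0.09). None of these values passed a test.

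Same-numbered libraries did not deviate together (r of -0.02, 0.02 and 0.04 for the pairs of the first set and of -0.01, 0.01 and 0.01 for 3M), so the numbers were not taken to pair samples. With the replicate block 192 genes were called in the first set, 2 of them among the 10, and the differences of the log2 ratios, which the block cannot move with 3 pairs in each set, were in order of the pairs 0.34, -0.14 and 0.04 in the first set, with -0.05, -3.25 and -0.95 for 3M. A pseudocount of 0 gave no value for Tnni1 to Tnni3 in the 3M set, and 3 libraries a group and the low depth of Tnni1 and Tnnt1 there limit what could be seen.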

Other observations

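Marker lists not described above were as follows in the first set. Of 18 skeletal muscle markers 1 rose and 0 fell, with sums of 701 to 768 CPM over the Ctrl libraries and 747 to 791 CPM over the others. Of 11 conduction system, 7 erythroid and 10 macrophage markers 0 passed, and of 10 smooth muscle and mural markers 2 rose and 2 fell. The sums of these 4 lists did not overlap between the groups. Conduction markers summed to 234 to 248 CPM in Ctrl against 205 to 223 CPM, macrophage markers to 89.5 to 98.2 against 74.6 to 83.0 CPM, erythroid markers to 1655 to 2232 against 2296 to 2321 CPM, and smooth muscle markers to 1169 to 1238 against 1415 to 1453 CPM. Acta2, the smooth muscle marker with the most counts, rose from 584 ± 21.8 to 854 ± 10.7 CPM. Of the 10 smooth muscle markers, 4 had values above 0, and the median log2 fold change was -0.07. The part of these lists in the values of the myosin and troponin genes was not tested. In the 3M set 0 of the tested markers passed in any of these lists. The 4 Y-linked genes, which were all higher in Chaf1a cko of the first set, did not pass in the 3M set, and 2 had values above 0. Their sum was 393 to 646 CPM in Ctrl 3M and 355 to 394 CPM in Chaf1a cko 3M. Ddx3y, the Y-linked gene with the most counts, had a log2 fold change of -1.08 there (unadjusted p 0.00219, adjusted p 0.554 in edgeR), against 1.12 in the first set. The part of this in the 3M values was not tested. The skeletal muscle transcription factors Myod1, Myog, Myf5, Myf6 and Pax7 were at 0 in every 3M library. The sum of the 7 erythroid markers ran from 447 to 1036 CPM in Ctrl 3M and from 446 to 4012 CPM in Chaf1a cko 3M.

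Some listed genes of the 3M set had an unadjusted p under 0.05 and did not pass adjustment in edgeR, and they are named here after their values were seen. Myh14, a nonmuscle heavy chain, held 42.6, 67.9 and 71.1 CPM in Ctrl 3M and 123, 148 and 149 CPM in Chaf1a cko 3M (log2 fold change 1.21, unadjusted p 0.000714). Myl1, the fast skeletal essential light chain, averaged 41.7 ± 7.71 and 8.68 ± 8.10 CPM (-2.28, unadjusted p 0.00929). Hdac9, a class II histone deacetylase, averaged 9.54 and 53.1 CPM (2.47, unadjusted p 0.0448).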
